A study of Mus musculus with 8 samples.

Results

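The 10 genes of 4 nuclear receptor families were described in brown adipose tissue (BAT): the peroxisome proliferator-activated receptors (PPAR) Pparg, Ppara and Ppard, the retinoid X receptors (RXR) Rxra, Rxrb and Rxrg, the estrogen-related receptors (ERR) Esrra and Esrrg, and the thyroid hormone receptors (TR) Thra and Thrb. They were taken by name from a table of 31053 genes, and all 10 had enough counts to be tested among 9264 genes. BAT of 4 WT and 4 db/db mice, all on the C57BL6/J strain per the labels and 8 weeks old, was profiled by bulk RNA-seq to learn how the tissue changes in obesity. db/db mice carry a mutation of the leptin receptor gene Lepr, overeat and become obese and diabetic, whereas WT mice carry the intact gene. All mice were males on a normal diet and were fasted before the tissue was taken. The study names more than one supplier for WT mice, so it is not clear whether WT and db/db mice shared a supplier, and littermates were not stated.

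Per the labels the tissue is BAT, but a second field names the stromal vascular fraction, the cells left once adipocytes are removed. Adipocyte markers were abundant in every library, with a summed level of 9048 to 16071 CPM (counts scaled to the total of the tested genes and by TMM factors) over 6 markers in WT and 15051 to 19966 CPM in db/db, so the libraries held adipocyte RNA. Total counts ran from 2374079 to 3240074 per library, and 3 counts, taken as the smallest detectable level, corresponded to 0.902 to 1.33 CPM. No library held a count of Lepr (0 in each of the 8), which leaves the mutated gene itself unchecked. Markers of other cell types differed between the genotypes. Of 23 tested markers of skeletal muscle, 21 were higher in db/db, and the summed level of the list was 550 to 2050 CPM in WT and 2634 to 13425 CPM in db/db, with no marker at 0 in every library. Of 17 tested macrophage markers 16 were higher in db/db (summed level 204 to 265 CPM in WT and 981 to 1730 CPM in db/db), and 7 of 10 tested brown adipocyte markers were lower (9774 to 11647 CPM in WT and 4080 to 7264 CPM in db/db). Neither list had a marker at 0 in every library. Fibroblast markers were higher in 8 of 9 (590 to 705 CPM in WT and 1124 to 2306 CPM in db/db), and white adipocyte markers in 4 of 8 tested (124 to 374 CPM and 1902 to 2933 CPM), with Wt1 at 0 in every library. Endothelial markers were lower in 3 of 9 tested (482 to 534 CPM and 360 to 426 CPM). The part of these macrophage, adipocyte, fibroblast and endothelial levels in the receptor results was not tested. In bulk tissue, fewer cells of a type and less RNA per cell cannot be told apart.

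These receptors are transcription factors that bind DNA through a pair of zinc fingers and switch genes on or off when a ligand occupies a pocket in the protein. PPARs respond to fatty acids and their derivatives, TRs to triiodothyronine, RXRs to retinoids, and ERRs are orphan receptors that work without a known natural hormone and lean on the coactivators Ppargc1a and Ppargc1b. PPARs and TRs bind DNA as partners of an RXR, so each of those receptors depends on the RXR supply. In brown fat, Pparg is required to form adipocytes, Ppara and the ERRs drive fat oxidation and mitochondrial genes, and the TRs mediate the heat response to thyroid hormone.

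The DNA letters that encode the recognition helix of the first zinc finger show how the families relate, since this short stretch reads the half-site AGGTCA. Each stretch of 24 bases below codes for 8 amino acids and was found by translating the transcripts of GENCODE M21 (mm10). Capitals mark the 3 codons of the P box, the residues that set which half-site is read.
Pparg: tgtGAAGGAtgcaagGGTtttttc
Ppara: tgtGAAGGCtgtaagGGCttcttt
Ppard: tgcGAGGGGtgcaagGGCttcttc
Rxra: tgtGAGGGCtgcaagGGCttcttc
Rxrb: tgcGAGGGCtgcaagGGTttcttc
Rxrg: tgtGAAGGTtgcaaaGGCttcttc
Esrra: tgtGAGGCCtgcaaaGCCttcttc
Esrrg: tgtGAAGCCtgcaagGCAttcttc
Thra: tgtGAGGGCtgcaagGGCttcttt
Thrb: tgtGAAGGCtgcaagGGCttcttt
The capitals spell glutamate, glycine, glycine in 8 receptors and glutamate, alanine, alanine in the 2 ERRs, so the letters separate the ERRs from the receptors that pair with an RXR and from the RXRs themselves. The gene structure divided the receptors in another way. In 5 of them (all 3 PPARs and both TRs) an intron falls after base 15 of the stretch, whereas the 3 RXRs and 2 ERRs carry it within 1 exon. On mm10 the stretch lies at chr2:27741787-27741810 on the plus strand in Rxra and at chr19:6920079-6920102 on the minus strand in Esrra.

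To find out which receptors differed between the genotypes, the counts of db/db BAT were compared with those of WT BAT. Ppara, Rxrb, Esrra and Thrb, 1 receptor of each family, fell in db/db at an edgeR adjusted p (pAdj) under 0.05, and 0 of the 10 receptors rose. Fold changes are given on the log2 scale as db/db over WT with their SE (log2FC ± SE). In these 4 genes every db/db library lay below every WT library. Among all tested genes 27.7% passed in either direction, 11.9% as lower and 15.8% as higher in db/db, and 28.1% had no overlap between the genotypes. The receptors called lower were 4 of 10, and the median log2 fold change of all 10 was −0.47 against 0.0066 over all tested genes. When the skeletal muscle score (the mean log2 CPM of the muscle markers) was added to the fit, 0 of the 10 receptors passed, against 7.92% of all genes, so the 4 calls did not hold with the score in the fit. In that fit the log2 fold changes of Ppara, Rxrb, Esrra and Thrb were −0.99, −0.74, −0.99 and −0.69, with edgeR adjusted p of 0.148, 0.142, 0.0742 and 0.189. The score was 3.68 to 5.70 in WT and 5.67 to 8.19 in db/db, so it moved with genotype. The unadjusted p in that fit was under 0.05 for the same 4 receptors. It was also under 0.05 for Rxra, which it was not without the score, with a log2 fold change of 0.72 and an edgeR adjusted p of 0.179.

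**Figure D1:**
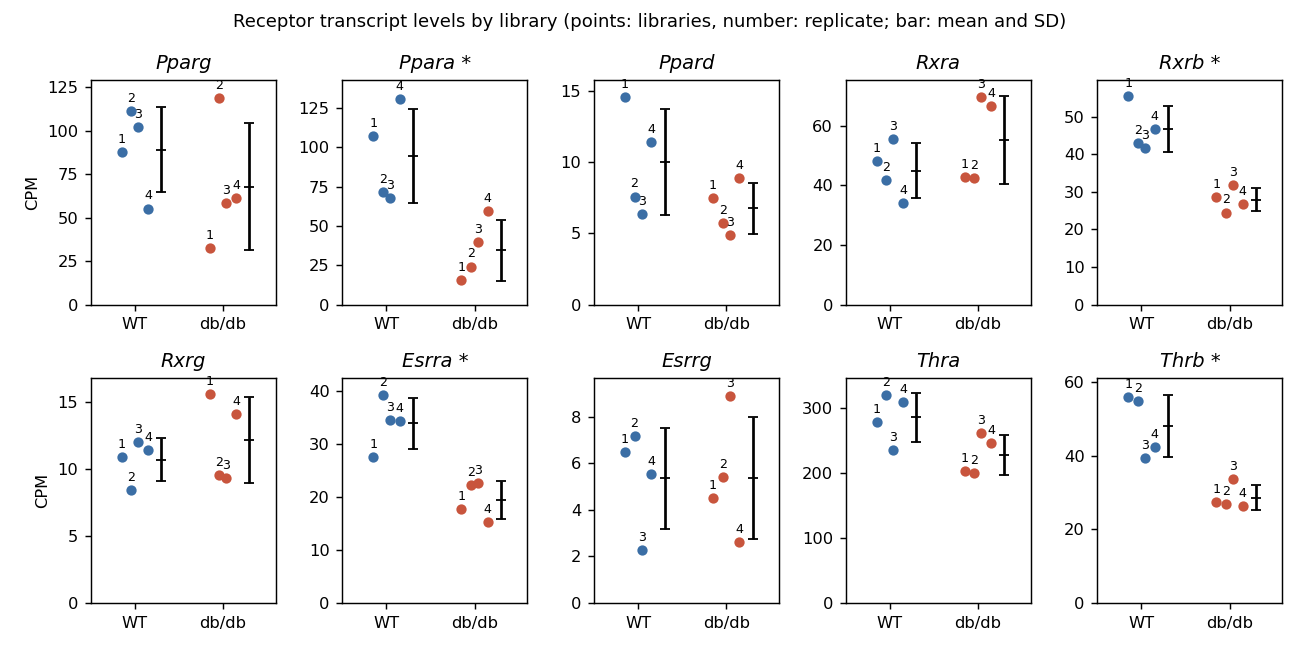
Transcript levels of the 10 receptor genes in CPM (vertical axis from 0, one scale per gene) in the 4 WT and 4 db/db libraries; each point is a library with its replicate number, the bar is the mean with the SD, and an asterisk marks an edgeR adjusted p under 0.05. In Ppara, Rxrb, Esrra and Thrb the highest db/db library lies below the lowest WT library.

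Ppara, on the plus strand at chr15:85734983-85802819 (ENSMUSG00000022383), drives fatty acid oxidation and fell most of the 10. Its level was 107, 71.7, 67.6 and 130.3 CPM in WT replicates 1 to 4 and 15.3, 24.2, 39.5 and 59.5 CPM in the db/db replicates. Even the highest db/db library fell short of the lowest WT library, and the db/db libraries were spread over a wider fold range than the WT libraries. The mean went from 94.1 ± 29.9 to 34.6 ± 19.4 CPM (SD, n = 4 each), which is 2.75-fold lower in the fit (log2FC −1.46 ± 0.31, pAdj 0.00165). The muscle score was 3.68, 4.92, 4.45 and 5.70 in WT replicates 1 to 4 and 8.19, 6.30, 7.11 and 5.67 in the db/db replicates. In db/db the highest score went with the lowest Ppara and the lowest score with the highest Ppara, but replicate 3 had a higher score and more Ppara than replicate 2, and in WT the highest score went with the highest Ppara. Without db/db replicate 1 the 4 receptors that fell all still passed.

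Pparg, at chr6:115360951-115490399 on the plus strand (ENSMUSG00000000440), is the master regulator of fat cell formation. It measured 87.4, 111, 102 and 55.2 CPM in WT and 32.5, 119, 58.5 and 61.4 CPM in db/db. The groups overlapped, and db/db replicate 2 held the highest Pparg of all 8 libraries and db/db replicate 1 the lowest. Its mean was 88.9 ± 24.5 CPM in WT and 67.8 ± 36.3 CPM in db/db (SD, n = 4 each), and the difference did not pass (log2FC −0.39 ± 0.29, pAdj 0.341). Without db/db replicate 2 the value was −0.82 with an edgeR adjusted p of 0.0218, and with the muscle score in the fit it was 0.50 with an adjusted p of 0.517, so the call and the direction of Pparg depended on these choices.

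Ppard, at chr17:28232700-28301474 on the plus strand (ENSMUSG00000002250), the broadly expressed member that supports oxidative metabolism in muscle, was the scarcest PPAR, also per exon length. The WT libraries held 14.6, 7.60, 6.39 and 11.5 CPM and the db/db libraries 7.52, 5.73, 4.88 and 8.93 CPM, on 11 to 36 counts each. The ranges overlapped and the log2FC of −0.55 ± 0.33 did not pass (pAdj 0.241). The genotypes overlapped in the makeup of the family. Ppara supplied 37.7% to 66.2% of PPAR counts in WT and 16.3% to 45.8% in db/db, and Pparg 28.0% to 58.3% in WT and 47.3% to 79.9% in db/db. The summed PPAR level was 193 ± 13.7 CPM in WT and 109.1 ± 40.5 CPM in db/db (SD, n = 4 each).

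Rxrb, at chr17:34031812-34038399 on the plus strand (ENSMUSG00000039656), is a widely expressed RXR partner. It measured 55.4, 43.0, 41.7 and 46.7 CPM in WT and 28.6, 24.5, 31.9 and 26.8 CPM in db/db. The libraries of each genotype lay close together and the genotypes stood apart, a 1.68-fold lower level in db/db (46.7 ± 6.18 and 27.9 ± 3.13 CPM, SD, n = 4 each; log2FC −0.74 ± 0.17, pAdj 0.00274). The fitted log2FC was −0.74 both with and without the muscle score, but the error was wider with it (pAdj 0.142).

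Rxra, the RXR that partners PPARs in fat and liver, lies at chr2:27676440-27762957 on the plus strand (ENSMUSG00000015846). It held 48.2, 41.8, 55.6 and 34.0 CPM in WT and 42.7, 42.6, 69.6 and 66.6 CPM in db/db. Db/db replicates 3 and 4 exceeded every WT library, while replicates 1 and 2 lay inside the WT range, and the difference did not pass (log2FC 0.29 ± 0.20, pAdj 0.302). Rxrg, at chr1:167598384-167639623 on the plus strand (ENSMUSG00000015843), is the RXR most restricted to muscle, brain and some endocrine cells. Its values of 10.9, 8.44, 12.0 and 11.5 CPM in WT and 15.6, 9.54, 9.31 and 14.1 CPM in db/db overlapped, and its log2FC of 0.19 ± 0.27 did not pass (pAdj 0.647). The RXR family as a whole measured 102.3 ± 11.3 CPM in WT and 95.5 ± 16.4 CPM in db/db (SD, n = 4 each), so the lower Rxrb stood beside a summed RXR level whose means differed by less than 1 SD. Within it, Rxrb made up 38.1% to 50.7% of RXR counts in WT and 24.9% to 32.9% in db/db, with no overlap, and Rxra 36.9% to 50.9% in WT and 49.1% to 62.8% in db/db, with overlap.

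Esrra, at chr19:6910977-6921813 on the minus strand (ENSMUSG00000024955), partners Ppargc1a to switch on mitochondrial genes. It measured 27.5, 39.2, 34.6 and 34.4 CPM in WT and 17.7, 22.3, 22.6 and 15.3 CPM in db/db. All db/db libraries lay below all WT libraries, and the mean fell from 33.9 ± 4.83 to 19.5 ± 3.58 CPM (SD, n = 4 each; 1.74-fold lower, log2FC −0.80 ± 0.19, pAdj 0.00491). Its exons overlap those of Trmt112 on the opposite strand by 73 bases, and whether reads were counted by strand was not stated, so its counts are uncertain to that extent. Esrrg, at chr1:187608791-188214885 on the plus strand (ENSMUSG00000026610), is the ERR prominent in oxidative muscle and heart. It was low, with 6.47, 7.17, 2.25 and 5.52 CPM in WT and 4.51, 5.41, 8.87 and 2.60 CPM in db/db, on 6 to 20 counts each. No order of the genotypes was visible, with a log2FC of −0.02 (SE 0.43, pAdj 0.984) whose wide error left a sizeable difference undetectable at this depth. ERR counts came mainly from Esrra, at 81.0% to 93.9% in WT and 71.8% to 85.4% in db/db.

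Thrb, at chr14:17660261-18038090 on the plus strand (ENSMUSG00000021779), encodes the TR isoforms tied in brown fat to Ucp1 induction. WT libraries held 55.8, 54.9, 39.5 and 42.4 CPM and db/db libraries 27.4, 26.7, 33.7 and 26.4 CPM. Db/db replicates 1, 2 and 4 were nearly equal and replicate 3 lay above them, still short of the lowest WT library, for a mean of 48.2 ± 8.42 CPM in WT and 28.5 ± 3.45 CPM in db/db (SD, n = 4 each; 1.69-fold lower, log2FC −0.76 ± 0.17, pAdj 0.00334). Thra, at chr11:98740638-98769006 on the plus strand (ENSMUSG00000058756), the TR tied to adrenergic responsiveness of brown fat, was the highest of the 10 receptors, also per exon length. It measured 279, 319.9, 236 and 309 CPM in WT and 204, 199, 262 and 246 CPM in db/db. Db/db replicates 1 and 2 lay below every WT library and the other two inside the WT range, and the log2FC of −0.33 ± 0.14 did not pass over all genes (pAdj 0.0931). Without WT replicate 3 it passed (pAdj 0.0382).

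The exons of Thra overlap by 263 bases those of Nr1d1 on the opposite strand, which encodes a heme-binding repressor of the clock. Nr1d1 held 12.1, 17.7, 23.7 and 24.6 CPM in WT and 32.8, 37.2, 47.4 and 23.1 CPM in db/db. It rose by 0.84 on the log2 scale (SE 0.25, pAdj 0.0166), although db/db replicate 4 lay inside the WT range. The call was lost without WT replicate 1 or 2 or db/db replicate 3 (0.64, 0.78 and 0.66, pAdj 0.0607, 0.0501 and 0.0665). Without strand, reads from this overlap cannot be told apart, so both levels are uncertain, with Nr1d1 holding 588 and Thra 5359 counts over all 8 libraries.

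**Figure D2:**
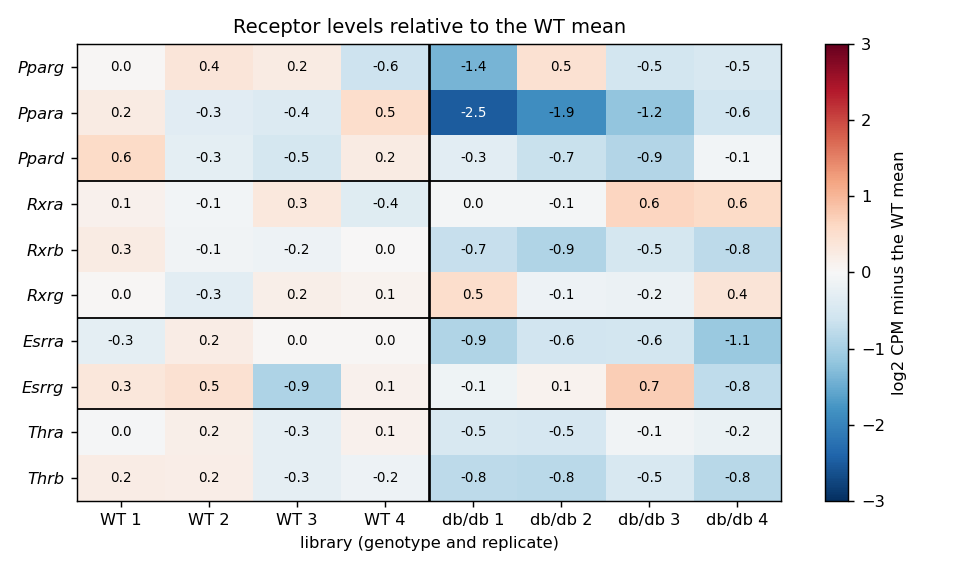
Deviation of each receptor's log2 CPM (prior count 2) from its WT mean, by library, with families separated by horizontal lines and genotypes by the vertical line; blue is below and red above the WT mean. Db/db replicate 1 lies below the WT mean in 9 of 10 receptors and the other db/db replicates in 8 of 10.

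Seen by library, 6, 6, 5 and 4 receptors of db/db replicates 1 to 4 lay below every WT library, and 1, 1, 2 and 2 lay above every WT library. The falls in Ppara, Rxrb, Esrra and Thrb thus ran through all db/db animals rather than resting on 1 of them. Summed over all 10 receptors the level was 668.6 ± 48.7 CPM in WT and 485.8 ± 65.8 CPM in db/db (SD, n = 4 each), with the highest db/db library at 541 and the lowest WT library at 597 CPM.

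**Figure D3:**
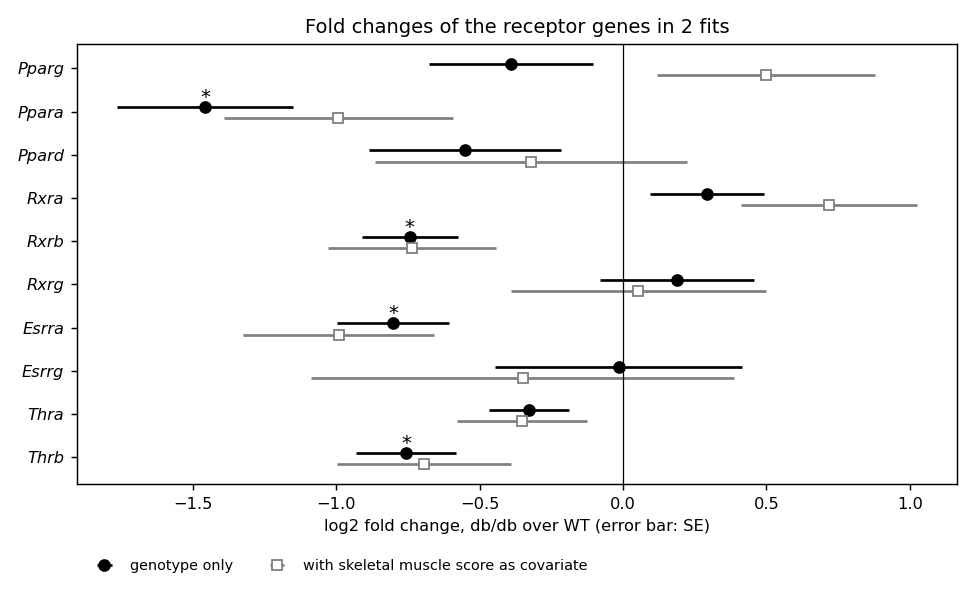
Log2 fold changes of the receptors, db/db over WT, with the SE as bars, in the fit with genotype alone (black circles, asterisk for an edgeR adjusted p under 0.05) and with the skeletal muscle score added (open squares). Pparg moves from −0.39 to 0.50, Rxrb stays at −0.74, and no receptor passes in the second fit.

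To compare receptors without any scaling between libraries, the log2 ratio of the counts of 6 pairs was taken within each library. Rxrb to Rxra was 0.20, 0.04, −0.41 and 0.46 in WT and −0.58, −0.80, −1.12 and −1.31 in db/db, so the genotypes did not overlap and the balance of the RXRs was 2.03-fold lower in db/db for Rxrb. Thrb to Thra was −2.32, −2.54, −2.57 and −2.86 in WT and −2.89, −2.89, −2.95 and −3.21 in db/db, again without overlap, a 1.33-fold lower ratio. Both reached the smallest p that 4 against 4 libraries allow (p = 0.0286, exact permutation, two-sided), which after adjustment over the 6 pairs was 0.0857 and did not pass.

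The other 4 pairs overlapped between the genotypes. Pparg to Ppara differed by 1.07 on the log2 scale in favour of Pparg in db/db (exact permutation p = 0.2, adjusted 0.24), and Esrrg to Esrra by 0.79 (exact permutation p = 0.114, adjusted 0.214). Pparg to Rxra was 0.86, 1.41, 0.87 and 0.70 in WT and −0.39, 1.47, −0.25 and −0.12 in db/db, where replicate 2 stood with the WT libraries (exact permutation p = 0.143, adjusted 0.214). Rxrg to Rxra differed by −0.13 (exact permutation p = 0.857).

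**Figure D4:**
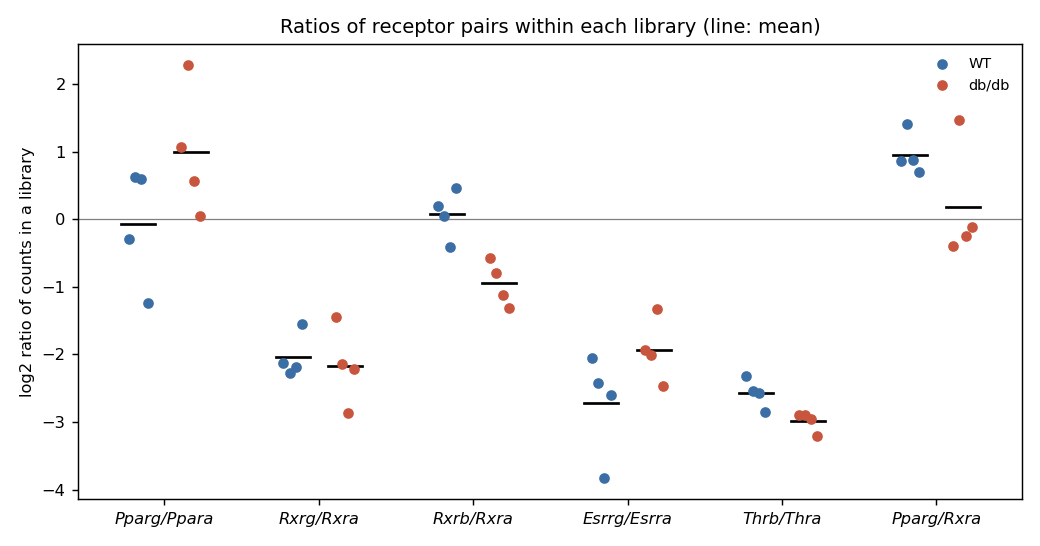
Log2 ratio of counts (0.5 added to each) of 6 receptor pairs within each library, WT in blue and db/db in red, with the mean as a line. Rxrb/Rxra and Thrb/Thra do not overlap between genotypes; in Pparg/Rxra a single db/db library at 1.47 stands with the WT libraries.

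To set the receptors against each other, CPM were divided by the merged exon length in kb. In WT the order was Thra (61.9 ± 8.18 CPM per kb), Pparg (30.1 ± 8.28), Ppara (24.5 ± 7.78), Rxrb (11.8 ± 1.56), Rxra (8.22 ± 1.69), Esrra (7.73 ± 1.10), Thrb (6.50 ± 1.14), Rxrg (4.66 ± 0.688), Ppard (1.33 ± 0.497) and Esrrg (0.863 ± 0.351; all SD, n = 4). Neighbours in this order overlapped in range between Pparg and Ppara, between Rxra, Esrra and Thrb, and between Ppard and Esrrg. In db/db, Thra stayed first at 49.4 ± 6.73 CPM per kb and Ppard and Esrrg stayed last, but the 7 receptors between them each overlapped the next, from Pparg at 22.9 ± 12.3 to Thrb at 3.86 ± 0.466 CPM per kb. Ppara, which followed Pparg in WT, came after Rxra in db/db at 9.03 ± 5.05 CPM per kb. The study names a digital mRNA-seq service and does not state whether reads cover whole transcripts. The order between genes therefore depends on the length used, and division by length may distort it. In CPM without length, WT Ppara (94.1) stood above Pparg (88.9), and Thrb (48.2) above Rxrb (46.7) and Rxra (44.9), all with overlapping libraries.

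Of 39 other nuclear receptor genes 20 were tested, 1 rose and 5 fell, with a median log2 fold change of −0.20. The 6 calls of 20 are near the 27.7% called over all genes. The 5 that fell were Esr1, Nr1h2, Nr4a1, Nr4a2 and Nr4a3, of which the 3 Nr4a genes are immediate early receptors that respond within minutes to cAMP. Nr4a1 varied widely, with 1.21, 67.1, 102 and 67.5 CPM in WT and 3.91, 11.8, 1.33 and 15.6 CPM in db/db, so that the genotypes overlapped, with WT replicate 1 and db/db replicate 3 both at the floor of 3 counts (log2FC −2.84 ± 0.68, pAdj 0.00439). Nr4a3 had 4.05, 4.22, 18.0 and 11.9 CPM in WT and 0 CPM in 3 of 4 db/db libraries, with 4.09 CPM in replicate 4 (log2FC −3.23 ± 0.82, pAdj 0.00667). Without db/db replicate 4 every db/db library was at 0, and the fitted −7.68 (pAdj 0.000196) depends on the prior count and is no bound; over all libraries left out in turn the value ran from −7.68 to −2.73. With the muscle score it was −2.48 and did not pass (pAdj 0.208). In DESeq2 neither passed, with pAdj of 0.0519 for Nr4a1 and 0.173 for Nr4a3, nor did Nr4a1 in limma-voom (0.252).

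Receptors act through cofactors. Among 12 tested coactivators 2 fell and 0 rose, which is near the 11.9% of all tested genes called lower and is no result about the list. These 2 are known as partners of the ERRs and PPARs that drive mitochondrial programs. Ppargc1b held 101, 91.6, 59.0 and 88.3 CPM in WT and 21.7, 38.5, 41.7 and 48.0 CPM in db/db, with no overlap (log2FC −1.19 ± 0.22, pAdj 0.000491). Ppargc1a, the cold-induced coactivator, held 25.1, 24.1, 19.9 and 36.9 CPM in WT and 14.1, 19.4, 14.6 and 12.7 CPM in db/db, also with no overlap (log2FC −0.79 ± 0.23, pAdj 0.0158). Without WT replicate 4 Ppargc1a did not pass (−0.60, pAdj 0.0732), which left 1 call. The other 10 did not pass and the list's median was 0.0067, near that of all genes. Of the 8 corepressors 1 fell, Gps2, a subunit of the NCoR complex, from 54.7 ± 2.30 to 40.6 ± 5.78 CPM (SD, n = 4 each; log2FC −0.43 ± 0.15, pAdj 0.0440), and the list's median was −0.18, with 1 of 8 near the 11.9% of all genes called lower. Gps2 did not pass without WT replicate 1, 2 or 4 or db/db replicate 2, 3 or 4 (−0.45 to −0.39, pAdj 0.0683 to 0.104). With the muscle score in the fit 0 coactivators and 0 corepressors passed.

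For thyroid hormone supply, Slc16a10, a transporter that brings thyroid hormone into cells, had a log2FC of 0.35 ± 0.37 and did not pass (pAdj 0.517). Dio2, which makes the active hormone in brown fat, had 0.405, 1.69, 2.63 and 8.49 CPM in WT and 3.61, 0.954, 1.77 and 5.58 CPM in db/db, too low to be tested and overlapping. For fatty acid supply to the PPARs, 2 of 6 genes rose and 1 fell (median 0.34), beside 15.8% higher and 11.9% lower over all genes, too few genes to read against these shares. Fabp3, the heart-type fatty acid carrier, rose from 226 ± 48.5 to 812 ± 198 CPM (SD, n = 4 each; log2FC 1.85 ± 0.19, pAdj 1.37e-06), and Fabp4, the adipocyte carrier, rose by 0.65 with overlapping libraries. Lpl, which frees fatty acids from lipoproteins, fell by 0.46 (SE 0.14, pAdj 0.0232). The call of Fabp4 was lost without WT replicate 1, 2 or 4 or db/db replicate 2 or 3 (0.47 to 0.64, pAdj 0.0705 to 0.123), and that of Lpl without WT replicate 3 or db/db replicate 2 or 4 (−0.46 to −0.39, pAdj 0.0509 to 0.0693). The exons of Fabp3 overlap Zcchc17 on the opposite strand, so its level is uncertain.

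Among genes that PPARs and ERRs are known to regulate, some rose and others fell, beside 15.8% and 11.9% of all tested genes. Of the 18 PPARG targets 3 rose and 6 fell (median −0.21). Cfd, the adipokine adipsin, went from 3212, 2305, 5697 and 2772 CPM in WT to 457, 387, 899 and 467 CPM in db/db (log2FC −2.66 ± 0.28, pAdj 2.59e-06), and Agpat2, an enzyme of triglyceride synthesis whose exons overlap Egfl7, fell by 0.92. In contrast, Aqp7, the glycerol channel, rose from 107.9 ± 6.34 to 187 ± 24.7 CPM (SD, n = 4 each; log2FC 0.79 ± 0.13, pAdj 0.000256), and Plin1, a coat protein of lipid droplets, also by 0.79. The PPARG list was thus mixed, whereas Pparg itself did not pass.

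Among 18 tested PPARA targets, of 23 listed, 3 rose and 8 fell (median −0.44). The fall was clearest in Acot1, an acyl-CoA thioesterase, with 29.5, 24.9, 25.9 and 28.9 CPM in WT and 6.02, 5.09, 8.87 and 4.84 CPM in db/db (log2FC −2.15 ± 0.24, pAdj 4.57e-06). The uncoupling protein homologue Ucp3 fell by 1.06 (SE 0.30, pAdj 0.0126), as did the β-oxidation enzymes Acadl, Acadvl, Hadha and Hadhb by smaller amounts. Rises were seen in Cpt1a, the gate of fatty acids into mitochondria in liver (log2FC 1.12 ± 0.30, pAdj 0.0104) and in Acot2. Without WT replicate 4 the list had 7 calls (2 rose and 5 fell), and Ucp3 was among those that did not pass (−0.76, pAdj 0.0663).

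Of 22 ERR targets 3 rose and 7 fell (median −0.24). The falls included the angiogenic factor Vegfa, with 110.1, 125, 96.2 and 95.1 CPM in WT and 30.7, 64.9, 50.5 and 63.6 CPM in db/db (log2FC −1.03 ± 0.20, pAdj 0.000715). Ckmt2, the creatine kinase of muscle mitochondria, rose from 2.02, 7.17, 3.76 and 6.79 CPM in WT to 102, 16.5, 42.6 and 19.3 CPM in db/db (log2FC 3.20 ± 0.53, pAdj 0.000209). The highest Ckmt2 was in db/db replicate 1, the library with the highest muscle score, and without it the log2FC was 2.38 (pAdj 0.000124). With the score in the fit Ckmt2 did not pass (0.80, pAdj 0.278). Atp5g1, a subunit of ATP synthase, rose by 2.26 (SE 0.31, pAdj 3.88e-05), also highest in that library, and by 1.03 with the score in the fit (pAdj 0.0331).

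Of 7 tested TR targets 3 fell and 0 rose (median −0.31), beside 11.9% lower and 15.8% higher over all genes. Fasn, the fatty acid synthase, held 6572, 6142, 4151 and 6788 CPM in WT and 1962, 2116, 694 and 2152 CPM in db/db (log2FC −1.77 ± 0.27, pAdj 9.57e-05). Thrsp, a lipogenic gene named for its response to thyroid hormone, held 1516, 1583, 1077 and 1331 CPM in WT and 646, 985, 668 and 1057 CPM in db/db, where the highest db/db library fell just short of the lowest WT library (log2FC −0.71 ± 0.18, pAdj 0.00551). The remaining one was Ucp1, the uncoupling protein of heat production. With the muscle score in the fit, 3 PPARG, 2 PPARA, 1 ERR and 1 TR targets passed.

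**Figure D5:**
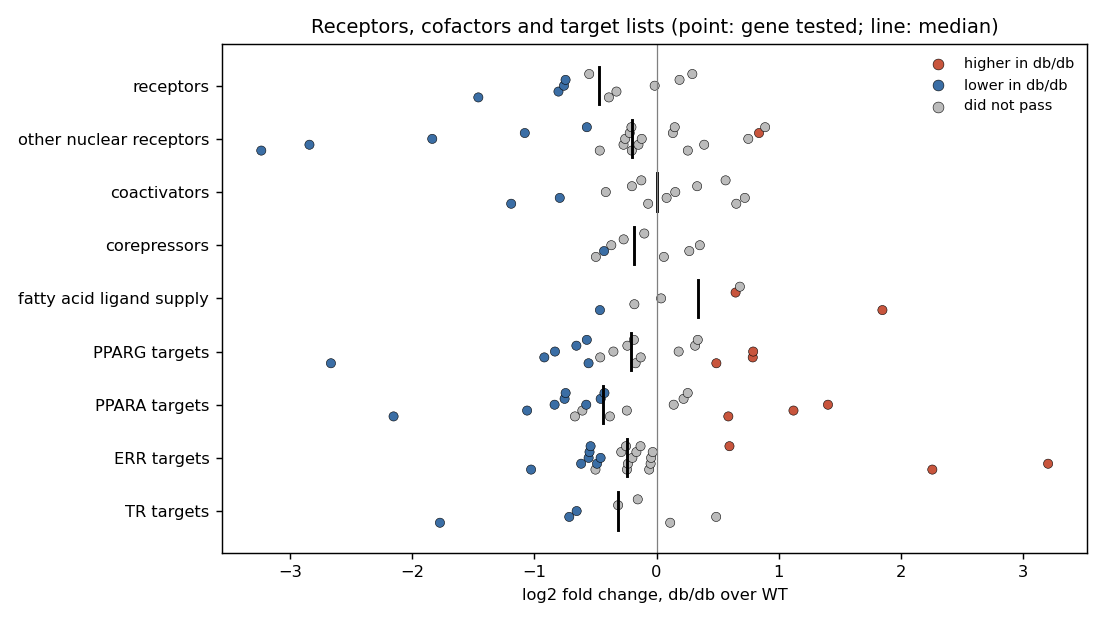
Log2 fold change, db/db over WT, of every tested gene in the receptor list, the cofactor and ligand lists and the target lists, red for higher and blue for lower at an edgeR adjusted p under 0.05 and grey for genes that did not pass, with the list median as a line. The receptor median lies at −0.47, the coactivator median at 0.0067, and the PPARG, PPARA and ERR target lists hold both falls and rises.

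The genes whose log2 CPM followed a receptor most closely over the 8 libraries were listed for the receptor with the smallest p in each family, as a description. Ppara was followed by Rmdn1 (Pearson r 0.975), Ndufa12 (0.972) and Slc25a46 (0.969), 3 genes of which Ndufa12 is a subunit of respiratory complex I and Slc25a46 a protein of the outer mitochondrial membrane. Rxrb was followed by Sqstm1 (0.986), Dcaf6 (0.984) and Prickle3 (0.983), Esrra by Plpbp (0.987) and Psmc2 (0.971), and Thrb by Zfp617 (0.981), Dlg1 (0.977) and Arfrp1 (0.975). The 8 libraries share the genotype contrast, and these were picked as the highest of many genes.

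To see whether the receptors' own promoters hold the half-site that they read, RefSeq windows of 250 bases before to 50 bases after a start (GRCm38.p6) were searched on both strands for AGGTCA. Windows were found for 9 of the 10 receptors, 18 in all. Of these, 5 held it, against 16.3% of 32851 windows of all genes, and the 4 genes concerned were Pparg, Rxra, Rxrg and Thrb. Among the 4 receptors that fell, Thrb has one and Ppara, Rxrb and Esrra have none. Their windows are too few to read against the share of all windows, so this is no result about the falls. The stretches are shown with capitals marking the half-site.
Pparg, chr6:115361106-115361131, plus strand: ccgccgcctcAGGTCAgagtcgcccc
Pparg, chr6:115362330-115362355, plus strand: ggacgcgaggAGGTCAagaaggggcc
Rxra, chr2:27709234-27709259, plus strand: gtggcaggaaAGGTCAgtcactctct
Rxra, chr2:27709195-27709220, minus strand: accattactcAGGTCAcacccatttc
Rxrg, chr1:167618167-167618192, plus strand: cggggttgaaAGGTCAgctgaaagct
Thrb, chr14:17660766-17660791, plus strand: gagagttgacAGGTCAagggaatagg
The extended half-site TCAAGGTCA favoured by ERRs was in 0 of the 18 windows (0.423% of all windows). Pairs of half-sites on one strand spaced by 1 base (DR1, the usual PPAR and RXR site) or by 4 bases (DR4, the usual TR and RXR site) were also in 0 of 18, against 0.04% and 0.015% of all windows. A match is a description of letters in these windows and says nothing of binding.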

How the data were processed

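BAT of 4 WT and 4 db/db mice was profiled, and groups were taken from the sample titles. Per the study's methods, the authors trimmed single-end reads with bbduk, aligned them to mm10 with STAR and counted them per gene with HTSeq-count, and deposited raw counts. The submitters' processing notes name Trimmomatic and HISAT2 instead. Strand, molecular identifiers and the annotation are not given in the sources used here, so PCR copies may be among the counts. A second deposited table holds log2 normalized values, which equalled the counts divided by DESeq2 size factors after an added 1 was removed, and was not used for tests. Of 31053 gene identifiers 30934 were matched to GENCODE M21.

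Genes were filtered by filterByExpr (minimum count 10, minimum total 15), scaled by TMM and tested in edgeR 4.0.16 (R 4.3.3; glmQLFit and glmQLFTest) on genotype alone. P-values were adjusted by Benjamini-Hochberg over 9264 genes at 0.05. The detection floor of 3 counts covers counting error only. Ratios of pairs used counts plus 0.5 and an exact two-sided permutation test. Log2 CPM used a prior count of 2. Alternatives were DESeq2 1.42.0, limma-voom (limma 3.58.1), 3 other scalings, 2 other filters on low counts, the replicate number as a block, the muscle score as a covariate, a pseudocount of 2 for ratios, and leaving out each library. In a simulation of db/db against WT in which 200 genes had a log2 change of 1, edgeR recovered 172 of 200 among 9370 genes, with 6 false calls. Every simulated gene had the same spread between libraries, and no gene with few counts was changed. The simulation therefore does not measure recovery at low counts or at a wider spread.

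The members and the gene lists were chosen with earlier results of these data known. Named were all receptors, Ppargc1a, Ppargc1b, Dio2, Thrsp and Nr1d1, and up to 2 genes per list and direction with the largest change and a mean of at least 5 CPM; other list members named without values were chosen after their calls were seen. Some genes that this rule names are not reported here. The samples are labelled biological replicates; replicates 1 to 4 in each genotype are different animals, and same-numbered libraries did not deviate together (correlations of deviations between −0.078 and 0.049).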

Additional observations from a re-analysis of the deposited data

Results flagged for a closer look

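Among 96 sets of 4 libraries examined (35 named genes, 6 ratios and 7 marker sums in each genotype), 7 had 1 library that stood apart from the other 3, where chance gives about 1 in 20, or 4.8. Among the receptors, Thrb reached 33.7 CPM in db/db replicate 3, with the others at 26.4 to 27.4, and the log2 ratio of Pparg to Rxra in db/db replicate 2 was 1.47 against −0.39 to −0.12. Of the ERR targets, Atp5g1 was 30.6 CPM in WT replicate 4 against 13.5 to 14.6, and in db/db replicate 1 it was 152.8 CPM, with 58.4 to 70.9 in the others. Db/db replicate 3 stood apart in Cfd, a PPARG target, with 899 CPM against 387 to 467, and in Fasn, a TR target, with 694 CPM against 1962 to 2152. Nr4a3 was 4.09 CPM in db/db replicate 4 and 0 in the other 3 libraries. The cause was not tested.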

How the results depend on the processing

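The falls of Ppara, Rxrb, Esrra and Thrb passed under 8 alternatives (DESeq2, limma-voom, 3 scalings, 2 filters and the replicate block) and without each library, with 4 or 5 receptor calls throughout. The fifth was Pparg with all genes of at least 1 count tested (edgeR adjusted p 0.0468) or without db/db replicate 2, and Thra without WT replicate 3. The skeletal muscle score as a covariate moved every list: 0 receptors, 1 other nuclear receptor, 0 coactivators, 0 corepressors, 0 thyroid hormone handling genes, 1 fatty acid supply gene, 3 PPARG, 2 PPARA, 1 ERR and 1 TR targets passed, and Pparg turned to 0.50. This score differs between the genotypes, and its part in the falls cannot be told apart from genotype. Corepressor calls were 2 with DESeq2, limma-voom, RLE scaling, mitochondrial genes left out or all genes of at least 1 count, and 0 with at least 10 counts in every sample. Thyroid hormone handling had 0 calls with that filter and with the replicate block.

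With 1 library left out, calls ranged from 4 to 5 (receptors), 5 to 7 (other nuclear receptors), 1 to 3 (coactivators), 0 to 2 (corepressors), 0 to 1 (thyroid hormone handling), 1 to 3 (fatty acid supply), 7 to 10 (PPARG), 7 to 11 (PPARA), 8 to 11 (ERR) and 2 to 4 (TR). Esrrg, at −0.02, ranged from −0.34 to 0.20 and turned to 0.07, 0.15, 0.05 and 0.20 without WT replicates 1 and 2 and db/db replicates 1 and 4. The Rxrg to Rxra ratio ranged from −0.38 to 0.10, Rxrb to Rxra from −1.18 to −0.89 and Thrb to Thra from −0.51 to −0.33. With the replicate block the receptor count was 4, and sign flips of same-numbered pairs gave p = 0.125, the smallest they can give, for Rxrb to Rxra and Thrb to Thra (exact). The numbers do not pair the animals. Depth limits Esrrg, Ppard and Dio2, on few counts each.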
